A study of Rattus norvegicus with 54 samples.

Results

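The DNA replication machinery is the set of proteins that copies the genome in S phase. Of 40 listed genes of this machinery, 36 were found by symbol among the 10257 genes of the rat heart expression table, and Pole, Pole2, Gins3, and Top2a were not analysed here. A ring of Mcm2 to Mcm7, joined by the GINS complex, unwinds the DNA, polymerase alpha with its primase lays down primers, and polymerases delta and epsilon extend them on the sliding clamp PCNA, which is loaded by the RFC complex. RPA coats single-stranded DNA, Fen1 and Lig1 process and join the lagging-strand fragments, ribonucleotide reductase supplies deoxynucleotides, and topoisomerases release the twist. In the adult heart most cardiomyocytes have left the cell cycle, while leukocytes, endothelial cells, and fibroblasts keep the capacity to divide. Several members also work outside S phase, among them Top1 and Top2b, Rrm2b, which serves DNA repair and mitochondrial DNA, and H2afz, the gene of the histone variant H2A.Z.

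The hearts came from 54 wild-type male Wistar rats that were around 7 to 8 weeks old when the 5 weeks of the protocol began, and atria and ventricles were crushed together. The 18 control (C) rats had food and water ad libitum and were left undisturbed, the 18 shift work (W) rats were kept awake by a slow rotating drum in their rest phase on weekdays over 5 weeks with food and water ad libitum, and the 18 WRF rats did the same work with water ad libitum and no food during the hours of work. The labels call the WRF schedule night feeding, but by the study's methods WRF rats could eat in the whole dark phase, in the light hours next to it, and at weekends, and all rats were killed on a weekend day without work. All were housed one to a cage with 12 h of light and 12 h of dark, and 3 rats per group were killed at each of zeitgeber times (ZT) 1, 5, 9, 13, 17, and 21, so that each group was made up of 3 series of 6 rats. Values are fpkm (fragments scaled to transcript length and to mapped reads), a level set per length, and the table holds no read counts, so the reads behind each value were not analysed here.

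The WRF libraries WRF51 (ZT9) and WRF62 (ZT5) stood apart from the other 52, and results are given with and without them. The summed level of 8 cardiomyocyte markers was 562 fpkm in WRF51 and 2917 fpkm in WRF62 against 16549 to 39297 fpkm in C rats, and 22839 to 36572 fpkm in the 16 other WRF rats. The sum of 8 T cell markers was 775 fpkm in WRF62 and 159 fpkm in WRF51 against 12.8 to 36.04 fpkm in C rats, and each of the 8 was above every C rat in both libraries. WRF51 also held 18789.5 fpkm of 9 macrophage markers, against at most 407 fpkm in C rats, but 18178.5 fpkm of this was Lyz2. Of the 9 markers, 7 were above every C rat in WRF51 and 6 in WRF62. The 2 neutrophil markers in the table summed to 9215 fpkm in WRF51 and 57.4 fpkm in WRF62, against at most 296 fpkm in C rats. WRF51 held 1419 fpkm of the lung gene Ager. WRF62 held 155 fpkm of the 1 B cell marker in the table, against at most 1.82 fpkm in C rats. The 4 atrial markers summed to 11669 fpkm in WRF62 and 65.96 fpkm in WRF51, against a median of 138 fpkm and at most 55788 fpkm in C rats. The heart label was thus poorly matched by the 8 cardiomyocyte markers in both libraries, of which WRF62 alone was high in atrial markers.

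The members spanned a wide range of levels in C hearts. H2afz was the most abundant with a median of 60.7 fpkm, followed by Pole4, a small histone-fold subunit of polymerase epsilon, at 28.5 fpkm and Pcna at 22.6 fpkm. The rarest were Pola1, the catalytic subunit of polymerase alpha, at 0.7998 fpkm, the GINS subunit Gins1 at 0.919 fpkm, and Rrm2, the small ribonucleotide reductase subunit made for S phase, at 1.06 fpkm. Subunits of 1 complex differed in level. Pola2, the accessory subunit of polymerase alpha, stood at 11.3 fpkm, far above its partner Pola1 and the primase subunits Prim1 (3.64 fpkm) and Prim2 (1.12 fpkm). Rrm1, the large reductase subunit, stood at 8.76 fpkm beside Rrm2 and Rrm2b (3.54 fpkm). Among the 6 Mcm genes the C medians ran from 1.15 fpkm for Mcm3 to 5.17 fpkm for Mcm7. In all, 28 of the 36 members were above 1 fpkm in all 54 rats.

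**Figure D1:**
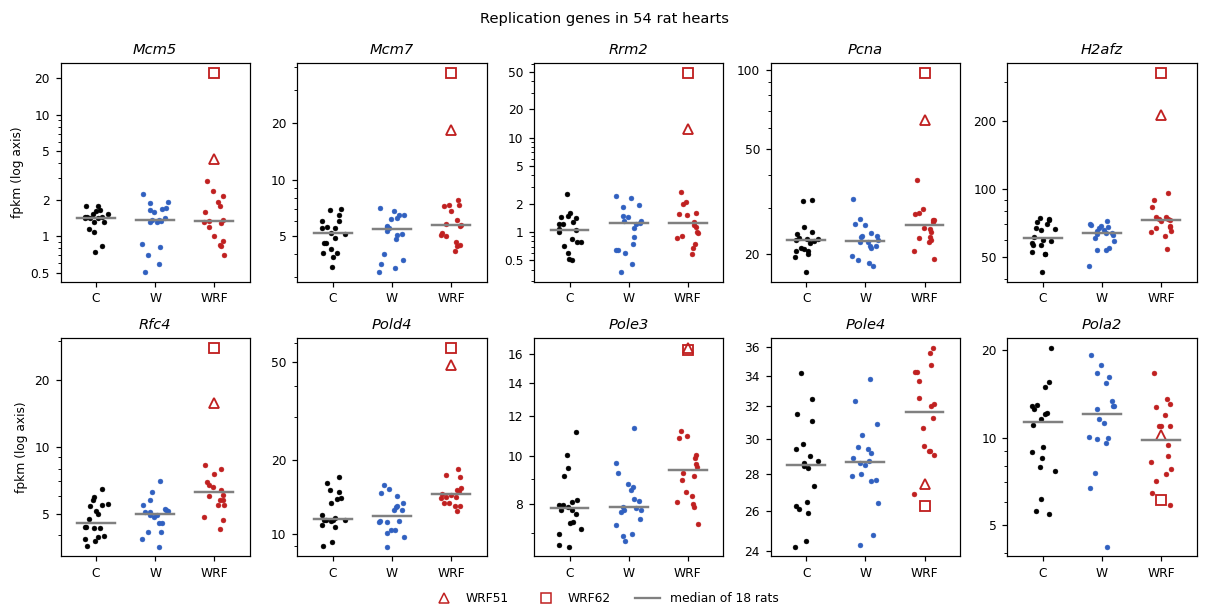
Level of 10 replication genes in each rat, as fpkm on a log axis of its own in each panel, by group. Points are rats, lines are group medians of 18 rats, and WRF51 (triangle) and WRF62 (square) lie above all other rats in every panel but those of Pole4 and Pola2.

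Whether replication genes differed between groups was tested with a Kruskal-Wallis test across C, W, and WRF rats, adjusted over all 10257 genes by the Benjamini-Hochberg method and followed by 2-sided Mann-Whitney tests. A gene was called when the adjusted p was at most 0.05 and the Mann-Whitney p was under 0.05. Sizes are differences of mean log2(fpkm + 1) with their standard error (SE) from limma, a scale that understates changes of genes near or under 1 fpkm. With all 54 rats, 8 of the 36 members (22.2%) were called higher in WRF than in C rats, against 8.13% of all genes, and 0 were called lower, against 0.721%. The 8 were Pold4, Pole3, Rfc2, Rfc3, Rfc4, Rpa3, Rrm1, and H2afz. The median difference over the 36 members was 0.26, with 31 members above 0, and that over all genes was 0.076, with 64.1% of genes above 0. Without WRF51 and WRF62, 3 members (8.33%) were called higher, namely Pold4, Pole4, and Rfc4, against 5.72% of all genes, a share near that background, and 0 were called lower, against 0.517%. The median difference of the members was then 0.088, with 28 above 0, beside 0.030 over all genes, with 56.5% above 0. The count fell to 0 when either the series from WRF62 to WRF46 or that from WRF50 to WRF55 was left out, and 0 of all genes were then called higher. It was 2 without the series from C17 to C22, against 4.24% of all genes, and 5 without that from W17 to W22 or W1 to W11, against 5.42% and 6.99%. In 14 of the 36 members the medians of all 3 WRF series, without both libraries, were above the C median, against 29.4% of all genes. In bulk tissue, fewer or more cells of a type and less or more RNA per cell cannot be told apart.

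The calls also moved with the scaling. After median-of-ratios scaling 6 members were called higher, against 2.17% of all genes. After scaling each rat to a sum of 1000000 fpkm 0 members and 0 of all genes were, and this scaling moved the median difference of all genes from 0.076 to -0.13. Relative to the median of all genes, the members' median difference was higher by 0.18 as deposited, 0.18 after median-of-ratios scaling, and 0.21 after scaling to an equal sum. These values include WRF51 and WRF62, without which the medians as deposited were 0.088 for the members and 0.030 for all genes. The median sum over all genes was 478799 fpkm in C, 505910 fpkm in W, and 572371 fpkm in WRF rats.

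**Figure D2:**
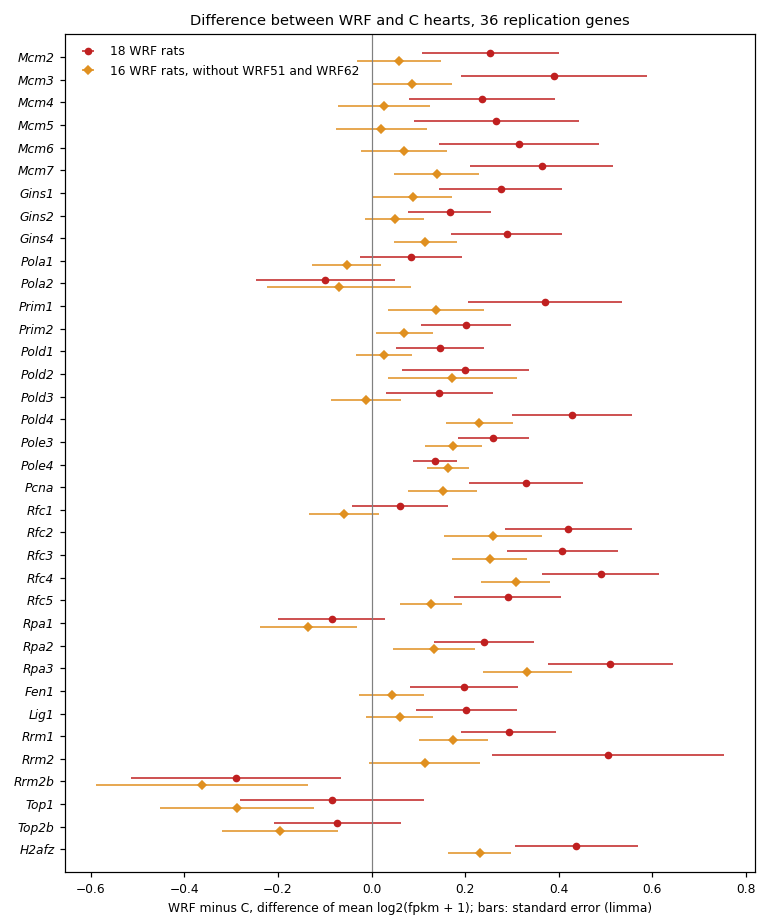
Difference between WRF and C hearts for each of the 36 members, as mean log2(fpkm + 1) in WRF minus C rats with its standard error from limma, with all 18 WRF rats and with the 16 other than WRF51 and WRF62. The median over the members is 0.26 with all rats and 0.088 without those 2, while Pole4 goes from 0.14 to 0.16.

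The clamp loader held 3 of the 8 called members. Rfc4, a small subunit of the RFC ring, ranged from 3.58 to 6.51 fpkm in C rats (median 4.57), from 3.57 to 7.07 fpkm in W rats (median 5.02), and from 4.28 to 27.9 fpkm in WRF rats (median 6.25). In all, 17 of 18 WRF rats were above the C median, and 8 were above every C rat. The difference between WRF and C rats was 0.49 (SE 0.12, Kruskal-Wallis adjusted p = 0.0157), and without WRF51 and WRF62 it was 0.31 (SE 0.074, adjusted p = 0.0341). Rfc2 had medians of 3.95 fpkm in C and 4.89 fpkm in WRF rats (2.47 to 6.204 and 2.92 to 19.6 fpkm) and an adjusted p of 0.0404. Rfc3 had medians of 3.87 and 5.02 fpkm (2.29 to 5.85 and 3.63 to 19.3 fpkm) and an adjusted p of 0.0436. Neither was called without both libraries (adjusted p = 0.0873 for Rfc2 and 0.0961 for Rfc3). Rfc5 (medians 2.62 and 2.93 fpkm, adjusted p = 0.102) and the clamp Pcna (22.6 and 25.8 fpkm, adjusted p = 0.0903) were not called. Rfc1, the large subunit, had 8 of 18 WRF rats above the C median (medians 5.05 and 4.902 fpkm, adjusted p = 0.474).

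Among the polymerases, Pold4 and Pole3 were called with all rats, and Pold4 and Pole4 without both libraries. The epsilon subunits Pole and Pole2 were not analysed here, and Pola2, also an accessory subunit, was not called. Pold4, the smallest subunit of polymerase delta, ranged from 8.99 to 17.1 fpkm in C rats (median 11.5), from 8.92 to 15.9 fpkm in W rats (median 11.9), and from 12.4 to 57.3 fpkm in WRF rats (median 14.6). All 18 WRF rats were above the C median, but the groups overlapped, with 5 WRF rats above every C rat. The difference was 0.43 (SE 0.13, adjusted p = 0.0174), and 0.23 (SE 0.072, adjusted p = 0.0398) without both libraries. Pole3, a histone-fold partner of Pole4, ranged from 6.59 to 11.2 fpkm in C rats and from 7.29 to 16.5 fpkm in WRF rats, with 17 of 18 above the C median. It was called with all rats (difference 0.26, SE 0.075, adjusted p = 0.0296) and not without both libraries (adjusted p = 0.0679). Pole4 behaved in the opposite way. It ranged from 24.2 to 34.2 fpkm in C rats and from 26.2 to 35.9 fpkm in WRF rats, with the lowest WRF value in WRF62 and 27.4 fpkm in WRF51. It was not called with all rats (difference 0.14, SE 0.047, adjusted p = 0.0614) and was called without them (0.16, SE 0.044, adjusted p = 0.0288), but scaling to an equal sum turned its difference to -0.092. The larger polymerase delta subunits Pold1, Pold2, and Pold3 were not called, with C medians of 2.05, 9.41, and 2.05 fpkm, WRF medians of 1.99, 10.9, and 2.05 fpkm, and adjusted p from 0.229 to 0.748.

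The other 3 called members were Rpa3, Rrm1, and H2afz. Rpa3, the smallest RPA subunit, ranged from 6.46 to 12.8 fpkm in C rats (median 7.97), 6.93 to 15.3 fpkm in W rats (median 8.94), and 7.34 to 45.3 fpkm in WRF rats (median 11.3). Its difference of 0.51 (SE 0.13, adjusted p = 0.0303) was the largest of the 36, and it was 0.33 (SE 0.095, adjusted p = 0.0669) without both libraries. The other RPA subunits were not called, with medians of 12.01 fpkm in C and 11.3 fpkm in WRF rats for Rpa1 and of 6.105 and 6.904 fpkm for Rpa2. H2afz ranged from 43.2 to 74.9 fpkm in C, 45.9 to 72.3 fpkm in W, and 54.6 to 327 fpkm in WRF rats, with medians of 60.7, 64.3, and 73.4 fpkm, and 7 WRF rats were above every C rat. Its difference was 0.44 (SE 0.13, adjusted p = 0.0236), and 0.23 (SE 0.067, adjusted p = 0.0529) without both libraries. Rrm1 ranged from 7.08 to 15.1 fpkm in C and from 7.79 to 33.3 fpkm in WRF rats, with medians of 8.76 and 11.04 fpkm. Its adjusted p was 0.0497 with all rats and 0.107 without both. In limma, 9 members were called higher with all rats, against 11.3% of all genes, and 6 without both libraries, against 9.32%. At an unadjusted Mann-Whitney p under 0.05, 11 members were higher with all rats and 10 without both libraries, against 21.4% and 18.3% of all genes, and 0 were lower, against 4.98% and 6.72%. Here and below, the direction in unadjusted Mann-Whitney counts is the sign of the limma difference.

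No member of the helicase or of the priming enzymes was called. Among Mcm2 to Mcm7, C medians of 1.15 to 5.17 fpkm stood beside WRF medians of 1.27 to 5.75 fpkm, and adjusted p ran from 0.285 for Mcm7 to 0.866 for Mcm5. Mcm7 had 3.43 to 6.98 fpkm in C rats, 3.22 to 7.09 fpkm in W rats, and 4.18 to 7.77 fpkm in the 16 other WRF rats, so these groups overlapped over most of their range. Without both libraries the differences of the 6 genes lay between 0.021 (SE 0.10) for Mcm5 and 0.14 (SE 0.091) for Mcm7, and those of Gins1, Gins2, and Gins4 were 0.088, 0.049, and 0.11. Pola1 had medians of 0.7998 fpkm in C and 0.8596 fpkm in WRF rats, Prim1 had 3.64 and 3.998 fpkm, and Prim2 had 1.12 and 1.22 fpkm. Pola2 had 11.3 and 9.83 fpkm, and 5 of 18 WRF rats were above its C median (adjusted p = 0.397). Fen1 (1.66 and 2.01 fpkm) and Lig1 (4.7998 and 5.24 fpkm) were not called either (adjusted p = 0.416 and 0.457).

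Rrm2b, Top1, and Top2b were low in several of the same rats. Rrm2b had medians of 3.54 fpkm in C, 2.99 fpkm in W, and 1.98 fpkm in WRF rats, and its difference of -0.29 (SE 0.22) was not called (adjusted p = 0.418). It stood at 0.0596 fpkm in WRF44, 0.222 fpkm in C38, 0.228 fpkm in C37, 0.319 fpkm in C35, and 0.324 fpkm in WRF45, against up to 6.81 fpkm in C26. Top1 was lowest in WRF45 (3.23 fpkm), WRF44 (3.38 fpkm), and C38 (4.14 fpkm), and Top2b in WRF45 (4.67 fpkm), C37 (5.86 fpkm), and C38 (5.905 fpkm), while C35 had 12.3 fpkm of Top1. The low rats thus came from both the C and the WRF group, but from 1 series in each, C33 to C38 and WRF62 to WRF46. Rrm2b had a median of 0.761 fpkm in the series from C33 to C38, against 3.59 and 5.11 fpkm in the other C series. Without WRF51 and WRF62, it had 1.01 fpkm in the series from WRF62 to WRF46, against 3.71 and 1.699 fpkm in the other WRF series. Top1 and Top2b were also lowest in these 2 series within their groups. The cause was not tested. Medians in C and WRF rats were 9.24 and 7.22 fpkm for Top1 and 11.4 and 9.47 fpkm for Top2b (adjusted p = 0.4498 and 0.728). When the series from C33 to C38 was left out, Rrm2b was called lower in WRF and in W rats than in C rats, against 11.2% and 8.04% of all genes.

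Between W and C rats 0 members were called higher, against 0.234% of all genes, and 0 lower, against 0.195%, and limma called 0. At an unadjusted Mann-Whitney p under 0.05 the count was also 0, against 1.08% of all genes higher and 1.56% lower, and the smallest p was 0.133 for Rfc1. The differences ran from -0.11 for Rpa1 to 0.14 for Pola2. Between WRF and W rats, which differ in access to food during work, the same 8 members were called higher as between WRF and C rats, against 8.26% of all genes, and 0 lower, against 0.692%. Without WRF51 and WRF62, Pold4, Pole4, and Rfc4 were called higher, against 5.77% of all genes, and 0 lower, against 0.526%. The comparisons share the WRF rats. Rfc2, for example, had a median of 3.91 fpkm in W and 4.89 fpkm in WRF rats, and Pold4 had 11.9 and 14.6 fpkm.

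The highest values of most members were those of WRF62. It was the highest of all 54 rats in 31 of the 36 members, against 27.6% of all genes, and WRF51 was among the 5 highest in 31, against 59% of all genes. Relative to the C median, WRF62 had a median ratio of 4.98 over the members, with 33 above 2 and 17 above 5, and WRF51 had a median ratio of 2.52, with 25 above 2 and 2 above 5. Over all genes the median ratio was 1.45 in WRF62 and 1.62 in WRF51, so both libraries were also above the C median in the table as a whole. The shares of all genes above ratios of 2 and 5 were not analysed here. Rrm2 stood at 48.5 fpkm in WRF62 and 12.3 fpkm in WRF51, while none of the other 52 rats passed 2.63 fpkm. Mcm3 stood at 34.5 fpkm in WRF62 and 5.45 fpkm in WRF51 (at most 2.54 fpkm in the other 52), Prim1 at 31.7 and 14.1 fpkm (7.51 fpkm), and Pcna at 97.3 and 64.3 fpkm (38.4 fpkm). By role, the ratio of WRF62 to the C median had a median of 11.6 over Mcm2 to Mcm7, 6.19 over GINS, 4.97 over PCNA and RFC, 4.16 over polymerase delta, and 1.497 over Pole3 and Pole4. Only Pola2 (6.101 fpkm) and Pole4 (26.2 fpkm) were under the C median in WRF62 among the 36. The T cell and B cell markers and most macrophage markers were above every C rat in the same libraries. Their part in the members' values was not tested.

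**Figure D3:**
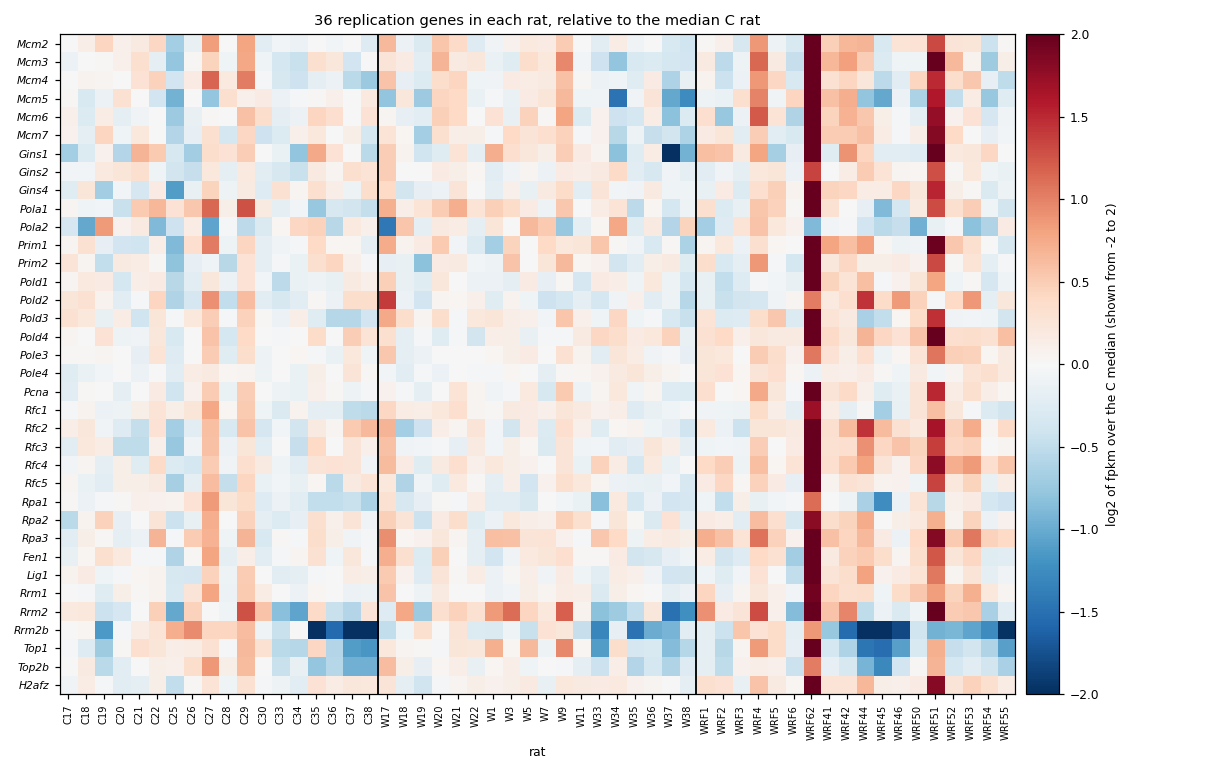
The 36 members (vertical) in each of the 54 rats (horizontal, by group and series), coloured by log2 of fpkm over the C median on a colour scale cut at a ratio of 4 either way. The columns of WRF62 and WRF51 are red in most members, with median ratios of 4.98 and 2.52, and Rrm2b is darkest blue in C35, C37, C38, WRF44, WRF45, and WRF55.

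Promoters are shown for 5 members that differ in these patterns: Mcm5 and Mcm7, with high ratios in WRF62 and no group call, Rfc4 and Pold4, called with and without both libraries, and Pole4, called only without them. The 250 bases before the RefSeq transcription start in GRCr8, a build other than the rn6 of the expression values, are printed 5′ to 3′ along the gene. They lie at chr19:13488563-13488812 (plus strand) for Mcm5, chr12:22163179-22163428 (minus strand) for Mcm7, chr11:91254023-91254272 (plus strand) for Rfc4, chr1:210955944-210956193 (plus strand) for Pold4, chr4:116728852-116729101 (minus strand) for Pole4. Capitals mark TTCCCGC and TTGGCGC, which are versions of the site of the E2F factors that drive S phase genes, and CCAAT, the NF-Y box, each on either strand.
Mcm5: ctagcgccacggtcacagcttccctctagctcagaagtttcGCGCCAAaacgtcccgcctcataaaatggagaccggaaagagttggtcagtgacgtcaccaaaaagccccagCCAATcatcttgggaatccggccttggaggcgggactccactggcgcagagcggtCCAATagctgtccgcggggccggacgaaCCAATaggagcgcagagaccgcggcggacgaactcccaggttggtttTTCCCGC
Mcm7: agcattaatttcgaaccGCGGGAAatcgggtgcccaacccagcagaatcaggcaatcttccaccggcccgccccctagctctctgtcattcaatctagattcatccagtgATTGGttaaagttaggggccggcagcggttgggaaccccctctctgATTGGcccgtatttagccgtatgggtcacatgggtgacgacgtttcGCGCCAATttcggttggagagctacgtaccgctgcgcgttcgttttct
Rfc4: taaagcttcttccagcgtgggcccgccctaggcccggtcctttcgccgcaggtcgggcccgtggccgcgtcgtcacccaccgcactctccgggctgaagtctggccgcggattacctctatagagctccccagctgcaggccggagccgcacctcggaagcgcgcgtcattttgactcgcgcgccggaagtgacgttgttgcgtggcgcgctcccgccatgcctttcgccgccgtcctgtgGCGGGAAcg
Pold4: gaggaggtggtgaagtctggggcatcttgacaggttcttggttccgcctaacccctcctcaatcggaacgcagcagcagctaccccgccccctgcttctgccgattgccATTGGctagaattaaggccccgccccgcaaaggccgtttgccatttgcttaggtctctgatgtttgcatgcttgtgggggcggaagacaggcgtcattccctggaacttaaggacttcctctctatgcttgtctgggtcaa
Pole4: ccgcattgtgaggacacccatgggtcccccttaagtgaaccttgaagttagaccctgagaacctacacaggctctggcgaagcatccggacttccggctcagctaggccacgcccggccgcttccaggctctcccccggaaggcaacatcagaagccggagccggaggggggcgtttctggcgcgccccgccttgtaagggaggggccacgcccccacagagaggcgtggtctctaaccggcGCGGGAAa
Either E2F version was found in 11 of the 31 members with a promoter entry (35.5%), against 5.32% of 27457 rat promoters of the same length. TTCCCGC was found in 8 members and 3.58% of promoters, TTGGCGC in 6 members and 1.901%, and CCAAT in 17 members and 34.3%. In Mcm7 a TTGGCGC on the other strand overlaps a CCAAT. Mcm5 and Mcm7 hold both E2F versions, Rfc4 and Pole4 hold TTCCCGC on the other strand close to the start, and Pold4 holds CCAAT on the other strand and neither E2F version. The ratio of WRF62 to the C median ran from 0.92002 to 15.6 (median 6.11) over the 11 members with an E2F version and from 0.5395 to 29.98 (median 4.64) over the 20 without, so the ranges overlapped. A match describes the letters and is not a measured binding site. Mcm4, Gins4, Rpa3, Rrm2, and Rrm2b had no entry.

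Apart from WRF51 and WRF62, the members were high together in single rats of every group, in part along with the table as a whole. WRF4 (ZT13) was among the 5 highest of 54 in 17 members (47.2%), against 9.58% of all genes. C27 (ZT9) was so in 16 members (44.4%), against 45.7%, W17 (ZT1) in 14 (38.9%), against 30.8%, and WRF44 (ZT17) in 13 (36.1%), against 28.5%. Next came C29 (ZT17) with 9 (25%), against 34.7%, and W9 and WRF53 (both ZT17) with 8 (22.2%) each, against 2.93% and 11.1%. C27 and C29 were thus no more often high in the members than in all genes. C25 (ZT1) was among the 5 lowest in 25 members, against 33.6% of all genes. The median ratio to the C median over all genes was 1.31 in C27, 1.21 in W17, 1.08 in WRF44, 1.08 in WRF4, and 0.892 in C25. Over all rats other than WRF51 and WRF62, the median ratio of the members to the C median ran from 0.755 to 1.42 in C, 0.8402 to 1.39 in W, and 0.895 to 1.41 in WRF rats, with medians of 0.998, 1.01, and 1.13, so the groups overlapped. C27, W17, and WRF44 held 55788, 62455, and 54998 fpkm of 4 atrial markers, whereas WRF4 held 90.4 fpkm. C25 had the lowest sum over all genes, 373115 fpkm.

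**Figure D4:**
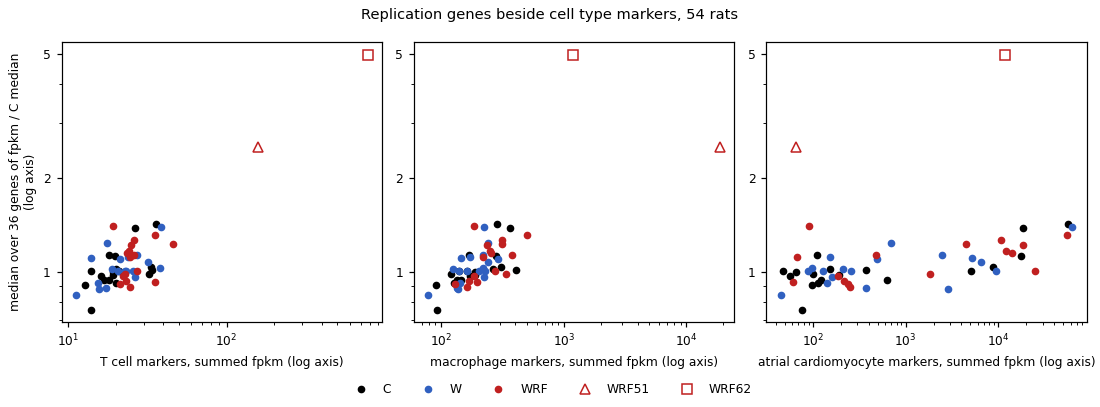
Median over the 36 members of fpkm divided by the C median (vertical, log axis) in each rat against the summed fpkm of T cell, macrophage, or atrial cardiomyocyte markers (horizontal, log axes), by group. WRF62 and WRF51, at 4.98 and 2.52, are also the highest in the T cell and macrophage sums, and the other 52 rats lie between 0.755 and 1.42.

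Atrial markers varied widely within each group. The atrial sum had a median of 138 fpkm in C, 317 fpkm in W, and 1154 fpkm in the 16 other WRF rats, with no atrial marker called, and Myl7, the atrial light chain, was above 100 fpkm in 6 C, 7 W, and 9 WRF rats. Among the 31 rats with at most 100 fpkm of Myl7 and without WRF51 (12 C, 11 W, and 8 WRF rats), 0 of the 36 members and 0 of all genes were called higher in WRF than in C rats. At an unadjusted p under 0.05 in the exact Mann-Whitney test, 7 members were higher and 0 lower, against 9.87% and 3.53% of all genes, and limma called 1 higher, against 0.838%. The median difference of the members was 0.10, with 29 above 0, beside 0.043 over all genes, with 62% above 0. In these rats Pold4 had medians of 11.4 fpkm in C and 13.8 fpkm in WRF rats (difference 0.20, SE 0.090), Rfc4 had 4.32 and 5.88 fpkm (0.29, SE 0.089), and Pole4 had 28.4 and 33.95 fpkm (0.21, SE 0.063). The part of atrial tissue in the group difference was not tested.

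By time of day, with the times of the titles, WRF rats stood above C rats mostly at ZT1, ZT5, and ZT13. Early in the dark phase, at ZT13, all 3 WRF rats were above all 3 C rats in 20 of 36 members (55.6%), against 28.7% of all genes. The same held at ZT1 in 10 members (27.8%), against 17.7%. At ZT5, where 1 of the WRF rats was WRF62, it held in 8 members (22.2%), against 8.85%. At ZT9, ZT17, and ZT21 it held for 1 member each (Mcm5, Fen1, and Pole4), against 1.09%, 3.43%, and 2.33%, and WRF51 was among the WRF rats at ZT9. All 3 WRF rats were below all 3 C rats in 0 members at ZT1, ZT5, ZT9, ZT13, and ZT17, against 3.63%, 4.46%, 0.985%, 0.946%, and 1.1% of all genes, and in Mcm2, Mcm3, and Rrm2 at ZT21, against 5.37%. With the times of the titles, these 3 genes were above C rats at ZT13 and below at ZT21. Mcm2 had 3.14 to 4.83 fpkm in WRF and 2.55 to 2.82 fpkm in C rats at ZT13, and 1.95 to 2.14 and 2.19 to 3.505 fpkm at ZT21. Rrm2 had 1.51 to 2.63 fpkm in WRF and 0.778 to 0.998 fpkm in C rats at ZT13, and 0.5801 to 0.979 and 1.27 to 1.58 fpkm at ZT21. With the times of the other labels no one of the 3 genes kept both sides. WRF rats then had 2.14 to 3.17 fpkm of Mcm2 at ZT21, against 2.19 to 3.505 fpkm in C rats, and 0.745 to 2.63 fpkm of Rrm2 at ZT13, against 0.778 to 0.998 fpkm. Mcm3 overlapped at both times, with 1.205 to 2.54 fpkm in WRF and 1.08 to 1.34 fpkm in C rats at ZT13. These counts describe 3 rats against 3 and carry no test.

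**Figure D5:**
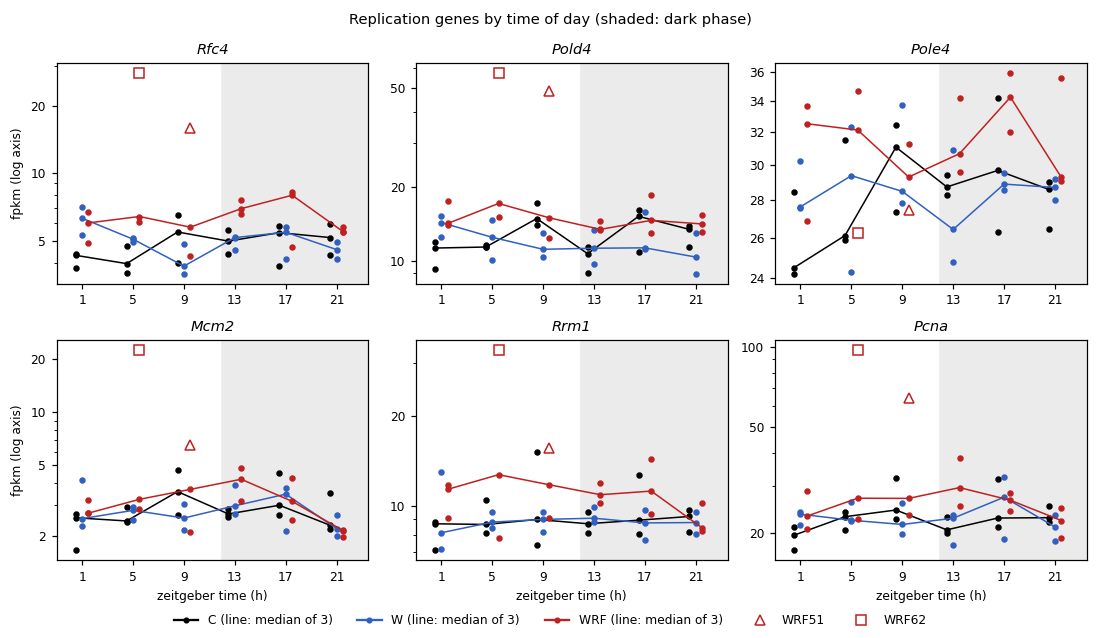
Levels of 6 replication genes by zeitgeber time, as fpkm on log axes, with each rat as a point (C black, W blue, WRF red), at the times of the titles, medians of 3 rats as lines, and the dark phase shaded. At ZT13 the 3 WRF rats lie above the 3 C rats in all 6 genes, and at ZT21 those of Mcm2 lie below.

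The title and the other labels disagree on the time of 12 WRF rats. With the other labels' times, WRF rats were above C rats in 19 members at ZT13, against 30.1% of all genes, in 14 at ZT1, against 19.8%, and in 9 at ZT5, against 10.9%. By these labels WRF62 was among the WRF rats at ZT1 and WRF51 among those at ZT5. They were above in 0 members at ZT9, ZT17, and ZT21, against 1.17%, 2.3%, and 1.66%. They were below C rats in Pola2 at ZT1, Rrm2b at ZT5, and Gins2 at ZT9, against 0.955%, 6.4%, and 3.57% of all genes, in 0 members at ZT13, against 1.65%, in Mcm2, Mcm5, and Pold1 at ZT17, against 2.53%, and in Mcm6 and Rrm2 at ZT21, against 4.07%. No member was called rhythmic. Harmonic regression (period 24 h) gave 0 members at q under 0.05 in C (0.848% of all genes), in W (0.0%), and in WRF rats (0.039%). At an unadjusted p under 0.05 it gave Gins2 (p = 0.007702) and Fen1 (p = 0.0389) in C rats, against 5.91% of all genes, and 0 members in W and WRF rats, against 3.05% and 6.35%. Without WRF51 and WRF62, 0 members were called in WRF rats (0.00975% of all genes), and Mcm3, Mcm4, Mcm6, Gins2, Prim1, and Rfc1 had an unadjusted p under 0.05, against 8.08%. Their fitted peaks lay between ZT10.8 for Rfc1 and ZT16.4 for Gins2, and the lowest p was 0.006695 for Mcm4 (q = 0.422). JTK, a rank-based test, called 0 members in each group, against 0.0682%, 0%, and 0% of all genes in C, W, and WRF rats. The rhythm differed between WRF and C rats in 0 members at an adjusted p of at most 0.05 (limma F test, 0.0% of all genes) and in Mcm5 and Rrm2 at an unadjusted p under 0.05, against 5.76%. Between W and C rats it differed in 0 members at either threshold, against 0.0% and 1.83%. These rhythm comparisons used all rats. Without WRF51 and WRF62, the unadjusted p of the limma F test between WRF and C rats was 0.229 for Mcm5 and 0.111 for Rrm2. Between W and C rats it was then 0.00381 for Gins2 (adjusted p = 0.688), where all rats gave 0.102. The shares of all genes in these tests without both libraries are not given here.

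Genes that work beside the replication machinery were described from 12 lists, whose counts stand beside the 8.13% of all genes called higher with all rats and the 5.72% without WRF51 and WRF62. Nucleotide supply had 5 of 20 genes called higher in WRF than in C rats (Dut, Umps, Nme1, Mthfd2, and Impdh2) and 0 lower. Dut, which keeps uracil out of DNA by breaking down dUTP, had medians of 36.3 fpkm in C and 41.9 fpkm in WRF rats (difference 0.22, SE 0.061, adjusted p = 0.0272) and was also called without WRF51 and WRF62. Nme1, a nucleoside diphosphate kinase, had 15.7 and 22.9 fpkm (difference 0.64, SE 0.15). Nucleotide excision repair had 4 of 17 called higher and 0 lower, and all 4 (Gtf2h2, Gtf2h3, Gtf2h5, and Mnat1) encode parts of the transcription factor TFIIH, which also opens promoters. Mnat1 had 7.56 and 9.67 fpkm (difference 0.29, SE 0.069, adjusted p = 0.0131). Base excision repair and translesion synthesis had 1 of 8 called higher, the endonuclease Apex1, with 14.1 and 16.2 fpkm. Without both libraries the counts were 2 of 20 (Dut and Shmt2), 2 of 17 (Gtf2h5 and Mnat1), and 1 of 8 (Apex1). Tfam and Ssbp1, which bind mitochondrial DNA, were then called higher among 8 genes of mitochondrial DNA replication, of which 0 were called with all rats.

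The lists closer to the cell cycle held few calls, and none of their genes was called lower. Origin licensing and firing had 0 of 13 genes called, with Tipin (adjusted p = 0.0805) and Orc6 (adjusted p = 0.0808) nearest to the threshold. Mitosis had 0 of 16, and its genes had a median ratio to the C median of 10.9 in WRF62 and 4.81 in WRF51, as in Tacc3 with 26.5 and 9.82 fpkm against at most 2.06 fpkm in C rats. The regulators E2F, RB, and MuvB had 0 of 8, histone chaperones 0 of 7, mismatch repair 0 of 6, and the alternative clamp loaders 0 of 1. G1 cyclins, kinases, and inhibitors had 1 of 9, Cdk4, with 29.2 fpkm in C and 33.02 fpkm in WRF rats, and p53 and its targets had 1 of 11, Phlda3, with 12.7 and 18.5 fpkm. In lists of this size 1 called gene is near the share of all genes. Neither was called without both libraries. Of the marker genes of 15 cell types, Postn, 1 of 8 fibroblast markers, was the only one called higher in WRF than in C rats. It was so with and without both libraries, against 8.13% and 5.72% of all genes. Kdr, 1 of 7 endothelial markers, was the only one called lower, and only without both libraries, against 0.517% of all genes.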

How the data were processed

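Poly(A) RNA of 54 rat hearts was sequenced by the authors, and per the labels the submitters' processing notes name TopHat2, Cufflinks, and the rat genome rn6, with versions not given in the sources used here. The deposited values are fpkm of 10257 genes, and at least 18 rats were above 1 fpkm in each gene. Samples were grouped by their titles, and the time of the title was used, which differs from the other labels in 12 WRF rats. Fpkm were used as deposited, without counts, so no interval for counting error can be given. Groups were compared with Kruskal-Wallis and 2-sided Mann-Whitney tests (scipy 1.17.1, exact where a group had under 10 rats), with Benjamini-Hochberg adjustment over all genes. Sizes and the test of rhythm differences came from limma 3.58.1 in R 4.3.3 on log2(fpkm + 1). Rhythms were tested by harmonic regression. The steps across genes were tested on simulated data. Every member found is accounted for, and of each pathway list up to 3 genes with the smallest Kruskal-Wallis p may be named. Umps, Impdh2, Shmt2, Gtf2h3, Lyz2, Postn, and Kdr fall outside that rule and were chosen after their values were seen. The members and lists were chosen with earlier results of these data known. Promoters came from RefSeq (GRCr8), with 31 members matched, H2afz as H2az1. Alternatives covered libraries, scaling, low values, series, repeated entries, pseudocount, test, time, and pairing by rat number. Same-numbered C and W rats were not taken as pairs.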

Additional observations from a re-analysis of the deposited data

How the results depend on the processing

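The counts of 8 members called higher in WRF than in C and than in W rats fell to 3 and 3 without WRF51 and WRF62, and to 0 and 0 after scaling to a sum of 1000000 fpkm, where 0 of all genes were called higher. They were also 0 and 0 in the alternatives chosen after seeing the data, namely median-of-ratios scaling without both libraries, in which 0.877% and 0.887% of all genes were called higher, and the 31 rats with little Myl7, in which 0 of all genes were. Leaving out WRF51, WRF62, W21, or 1 series at a time gave 0 to 9 called higher in WRF than in C or in W rats, 0 to 1 lower in WRF than in C rats, and 0 to 1 higher and 0 to 1 lower in W than in C rats. Without WRF51, WRF62, or W21 the count higher in WRF than in C rats was 6, against 6.04%, 7.14%, and 7.12% of all genes. The call lower was Rrm2b without the series from C33 to C38, against 11.2% of all genes in WRF and 8.04% in W rats. The call higher in W rats was Rpa3 without the series from C25 to C30. For this call, and for counts above 6 with 1 series left out, the share of all genes is not given here. They are thus not read as results about the members. The 12 same-numbered pairs of C and W rats correlated from -0.185 to 0.647, 6 of them above 0.1 and 1 best with its own number, and limma called 0 members with and 0 without the replicate block. In the 6 WRF and W rats that share numbers, an analysis added after seeing the data, limma called 0 with and 0 without the replicate block. Of the log2 differences between WRF and C rats, those of 14 of 36 members changed sign in some setting, and none of these members was called with all 54 rats. With a sum of 1000000 fpkm the values were -0.021 for Gins2, -0.055 for Pola1, -0.023 for Pold1, -0.014 for Pold2, -0.030 for Pold3, -0.092 for Pole4, and -0.15 for Rfc1. Without both libraries they were -0.054 for Pola1, -0.012 for Pold3, and -0.058 for Rfc1, with median-of-ratios scaling in addition -0.060 for Pola1, -0.029 for Pold3, and -0.080 for Rfc1, and with that scaling alone -0.022 for Rfc1. In the 31 rats with little Myl7 they were -0.023 for Gins2, -0.048 for Pold1, -0.048 for Pold2, -0.074 for Fen1, -0.026 for Lig1, 0.30 for Rrm2b, 0.10 for Top1, and 0.11 for Top2b. Leaving out WRF51, WRF62, W21, or 1 series gave -0.027 to 0.20 for Pola1, -0.23 to 0.015 for Pola2, -0.0039 to 0.27 for Pold1, -0.0047 to 0.42 for Pold2, -0.057 to 0.17 for Rfc1, -0.25 to 0.055 for Rpa1, -0.73 to 0.055 for Rrm2b, -0.28 to 0.087 for Top1, and -0.31 to 0.14 for Top2b. The cause of these changes was not tested, and the depth behind low values such as those of Pola1 and Gins1 was not analysed here.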
